A study of Rattus with 4 samples.

Results

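Of the 10804 peaks in the RBM25-bound RNA of H9C2 cells, 221 lay on the sense strand of a 3' UTR or of an exon of a noncoding transcript. They were taken by the authors' annotation of each peak, which had to name a 3' UTR or a noncoding exon and neither coding sequence nor a 5' UTR. The 3' UTR class held 63 peaks in 48 genes and the noncoding exon class held 158 peaks in 49 genes. A further 33 peaks named one of these classes together with coding sequence or a 5' UTR, 27 of them with a 3' UTR and 6 with a noncoding exon, and were left out. RBM25 is a splicing factor that associates with the U1 small nuclear ribonucleoprotein, and H9C2 is a rat myoblast line from embryonic heart. All 4 samples were H9C2 cells irradiated with ultraviolet light at 400 mJ per cm2, and their RNA was digested with micrococcal nuclease. RNA precipitated with RBM25 (IP, 2 samples) was sequenced beside input RNA (2 samples), and the 1 peak list of each IP was used, with 2696 peaks in replicate 1 and 8108 in replicate 2. The inputs were not analysed here, so no value below is a level over input, and the labels do not say whether the replicates came from separate cultures. The submitters' design text also speaks of H9C2 cells with raised RBM25, used for RNA-seq, and does not say whether the cells of the IP carried it.

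A 3' UTR is the stretch of a messenger RNA after the stop codon, where proteins and microRNAs that set the stability, translation and location of the message often bind. Noncoding exons belong to RNAs that are not translated, among them ribosomal RNAs, small nuclear and nucleolar RNAs, long noncoding RNAs (lncRNAs) and untranslated transcripts of coding genes. Splicing factors act in the nucleus on unspliced transcripts, and ribosomal RNA makes up most of the RNA of a cell.

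The height of a peak is given as tags, the authors' own value per 50-nt bin, which was not scaled for depth. No peak fell below 19 tags (replicate 1) or 20 tags (replicate 2), and library depth is unknown. Intervals are 95% Wilson intervals over peaks and cover counting error only. Of the H9C2 markers, Tpm1 and Cdh15 had peaks in both lists and Vim in replicate 2, while Des, Myod1, Myog and Myf5 had none. Of 14 markers of other cell types, Smtn and Krt8 had peaks in both lists, and no marker of either kind had a peak in a 3' UTR or noncoding exon.

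The 3' UTR peaks were few and mostly low. Replicate 1 held 9 of them, 0.334% of its peaks (0.176 to 0.633), and replicate 2 held 54, 0.666% (0.511 to 0.868). Their median height was 22 tags in replicate 1 and 24.8 in replicate 2, against 24 and 26 over all peaks of each list. Most lay wholly in the 3' UTR, 55 of 63, and 6 ran on into an intron. The noncoding exon peaks made up 2.15% of the peaks of replicate 1 (58 peaks, 1.67 to 2.77) and 1.23% of replicate 2 (100 peaks, 1.02 to 1.50). They were taller, with medians of 31.5 and 29.5 tags, and they carried 4.38% and 1.56% of all tags in peaks. Ribosomal RNA accounted for most of that difference in tags between the lists, with 26 peaks and 3.10% of the tags in replicate 1 and 22 peaks and 0.521% in replicate 2. Without ribosomal RNA, the noncoding exon peaks carried 1.28% and 1.04% of the tags, and their medians were 27.5 and 28 tags.

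**Figure D1:**
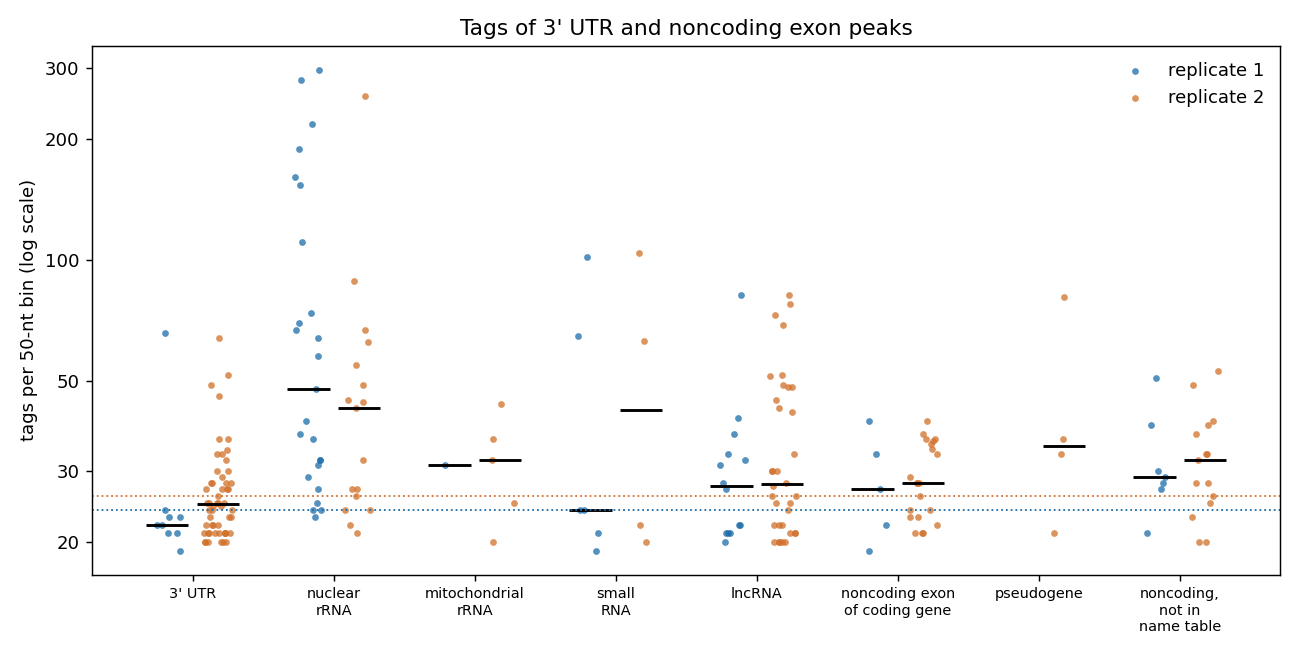
Each point is a peak, placed by its tags per 50-nt bin on a log axis and by the kind of gene, with replicate 1 in blue and replicate 2 in orange; black bars are medians and dotted lines the median of all peaks of that list. The 3' UTR points crowd near the lowest tags of the lists, and the points of nuclear ribosomal RNA reach 297 tags in replicate 1 and 256 in replicate 2.

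A peak was said to recur when a peak of the other list overlapped it on the same strand. Of all peaks, 61.0% of replicate 1 and 20.3% of replicate 2 recurred, and these shares differ because the second list is longer. In the 3' UTR class, 2 of 9 peaks of replicate 1 recurred (22.2%, 6.32 to 54.7), against 61.5% of all other peaks of that list (two-sided Fisher exact test, adjusted p = 0.043 over 4 comparisons). From the other side, 2 of 54 peaks of replicate 2 recurred (3.70%, 1.02 to 12.5), against 20.3% of all other peaks (Fisher exact test, adjusted p = 0.0038). Both tests use the same 2 pairs of overlapping peaks and are therefore not independent, and peaks of a gene are not replicates of a condition. Counted by gene, with a gene as 1 unit in a list, the share was 2 of 9 genes against 70.3% in replicate 1 and 2 of 44 genes (4.55%) against 35.7% in replicate 2 (Fisher exact test, adjusted p = 0.0085 and 1.1e-05). A gene with more peaks has more chances to recur, and 40 of the 44 genes had 1 such peak. Peak number per gene was not matched, so the smaller p-values by gene do not add to those by peak.

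The replicate 1 share rested on few peaks. With partners allowed within 200 nt it was 4 of 9 (44.4%, Fisher exact test, adjusted p = 0.19), and with either strand allowed it was again 44.4% (Fisher exact test, adjusted p = 0.23). By height, 1 of 27 3' UTR peaks of replicate 2 under 25 tags recurred (3.70%, 0.657 to 18.3), against 10.1% of other peaks. At 25 tags or more it was again 1 of 27, against 27.4% of other peaks. In replicate 1, 8 of the 9 peaks had under 25 tags, and 2 of those 8 recurred, against 56.6% of other peaks of that height.

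**Figure D2:**
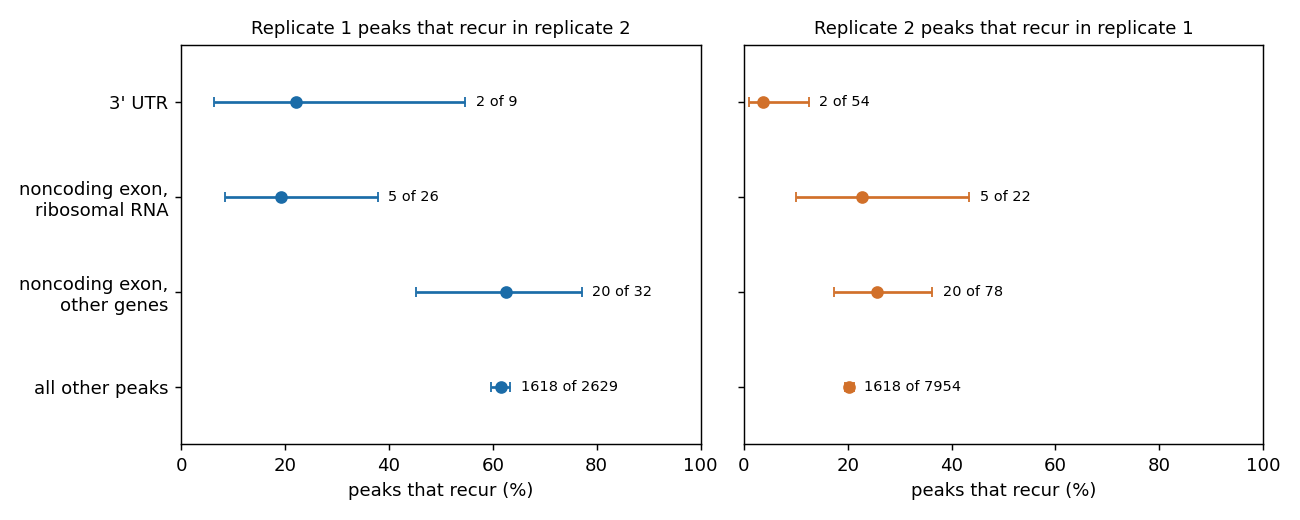
The share of peaks that recur in the other list, in percent, is drawn as points with 95% Wilson intervals for 3' UTR peaks, ribosomal RNA peaks, other noncoding exon peaks and all other peaks, with replicate 1 on the left and replicate 2 on the right. The 3' UTR points lie below those of all other peaks in both panels (22.2% and 61.5%, 3.70% and 20.3%), and noncoding exons outside ribosomal RNA lie near them in replicate 1 (62.5% and 61.5%).

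The recurring 3' UTR peaks were in Slc6a6, the taurine transporter, and Col1a1, a chain of type I collagen. In Slc6a6, the same bin held 24 tags in replicate 1 and 36 in replicate 2 (mRatBN7.2, chr4:124268050-124268100, plus strand). Replicate 2 held a second peak of 22 tags in the same 3' UTR upstream of it (chr4:124267800-124267850). Neither list had a peak on the opposite strand of these bins. The Col1a1 peak had 21 tags in replicate 1 (chr10:79899750-79899800, plus strand) and 24.5 in replicate 2, where it was 1 bin longer.

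In 3 more genes a 3' UTR peak lay within 200 nt of a peak of the other list without overlap. Thbs1, which encodes the matrix glycoprotein thrombospondin 1, had the highest 3' UTR peak of replicate 1, with 66 tags (chr3:105069750-105069800, plus strand). Its replicate 2 peak had 30 tags and began further along the transcript (chr3:105069900-105069950). Fstl1, a secreted follistatin-like protein, had 19 tags in replicate 1 (chr11:62895700-62895750, minus strand) and 28 tags in the adjoining bin of replicate 2. The third was Ddx39b, an RNA helicase of splicing and mRNA export, whose 3' UTR peak of 20 tags in replicate 2 lay near a replicate 1 peak in its coding sequence. Ybx3, a cold shock domain protein that binds RNA, was the only other gene with a 3' UTR peak in both lists. Its peaks had 23 and 29 tags and lay at the ends of a span of 2600 nt. Further peaks of replicate 1 were in Kpnb1, a nuclear import receptor (23 tags), Gnb1, a G protein beta subunit (22), and Tgfb3, a transforming growth factor beta ligand (21).

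Replicate 2 carried the larger set of 3' UTR genes, 44 in all, and 40 of them had a single such peak. The highest was in Hnrnpa1, which encodes an hnRNP protein of splicing, with 64 tags, but only 0.14 of that peak was 3' UTR and 0.86 was intron. Peli3, an E3 ubiquitin ligase of innate immune signalling, had 49 tags, after the highest peak of Ndel1 (52), and Ankrd1, a stress-responsive muscle ankyrin repeat protein, at 46 tags. Myh9, the nonmuscle myosin IIA heavy chain, had 32 tags and Csrp1, a LIM domain protein of the actin cytoskeleton, had 30. Of these 44 genes, 29 had another sense peak in replicate 2 and 15 had none, and 9 had no other peak on either strand. In replicate 1, 20 of the 44 had no peak of any kind and 19 had a peak elsewhere but none in the 3' UTR.

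Of all genes with a peak, 9 of 922 in replicate 1 (0.976%) and 44 of 1819 in replicate 2 (2.42%) had one in the 3' UTR class. By gene group, 26 of 40 U1, SR and hnRNP splicing factor genes had a peak somewhere in replicate 1 and 35 in replicate 2. None of the former and 1 of the latter (2.86%), Hnrnpa1, had one in the 3' UTR class, near the share of all genes. Of 46 matrix and cytoskeleton genes, 27 and 34 had a peak, and 2 (7.41%) and 6 (17.6%) of them had one in the 3' UTR, above the share of all genes, a difference that was not tested. These were Col1a1 and Thbs1 in both lists, and Actb (beta-actin, 20 tags), Actn4 (an actinin, 21), Flna (filamin A, 21) and Myh9 in replicate 2. The 6 genes had from 4 (Actb) to 41 (Flna) peaks of any kind in replicate 2. A gene with more peaks has more chances of one in the 3' UTR, and peak number per gene was not matched. Of 84 genes of ribosomal proteins and translation factors, 23 and 52 had a peak. None had a 3' UTR peak in replicate 1, and 3 had one in replicate 2 (5.77% of 52, not tested against the 2.42%): Eif4a1, a translation initiation helicase (23 tags), Rpl41 (20) and Rpl35 (33.8), whose strand is taken up below.

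Ndel1, which encodes a partner of dynein, held more 3' UTR peaks than any other gene. It had 8, all in replicate 2, of 20 to 52 tags, spread over 4550 nt (chr10:53510450-53515000, minus strand). Replicate 1 had no peak on Ndel1, and neither list had any peak of Ndel1 outside its 3' UTR. In 7 of the 8 bins, replicate 2 also had a peak on the plus strand, and each of these was a sense peak of Myh10, the nonmuscle myosin IIB heavy chain, in coding sequence. Of these 7 Myh10 peaks, 6 ran across a boundary of exon and intron. The tags of the strands were close: 24.5 on the Ndel1 strand and 23.5 on the Myh10 strand, 21 and 21, 36 and 38, 33 and 45, 27 and 26, 33 and 32, and 52 and 49. The bin with no partner had 20 tags. Myh10 had 10 peaks in replicate 1 and 22 in replicate 2, of which 2 and 7 were within the stretch of the Ndel1 peaks. Which of the genes gave rise to these tags was not tested. Without Ndel1, 2 of 46 3' UTR peaks of replicate 2 recurred (4.35%, Fisher exact test against all other peaks, adjusted p = 0.012).

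**Figure D3:**
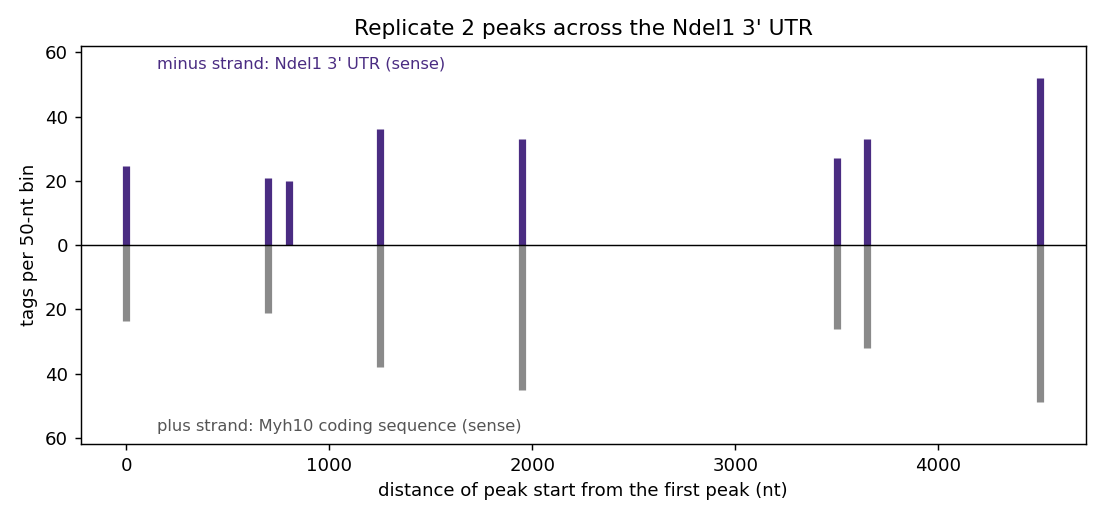
Tags per 50-nt bin of the replicate 2 peaks along the Ndel1 3' UTR, drawn upward for the Ndel1 strand and downward for the Myh10 strand, against the distance of the peak from the first one in nt. Of 8 bins, 7 hold a peak on each strand, and their heights follow each other, from 21 and 21 to 52 and 49 tags.

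Bins with a peak on each strand were common in the data. Of all peaks, 46.2% in replicate 1 and 70.0% in replicate 2 had a peak of the same list on the opposite strand in an overlapping bin, although the libraries came from a stranded kit. For 3' UTR peaks this held for 3 of 9 (33.3%, 12.1 to 64.6) and 36 of 54 (66.7%, 53.4 to 77.8). For noncoding exon peaks it held for 31 of 58 (53.4%, 40.8 to 65.7) and 69 of 100 (69.0%, 59.4 to 77.2). Each of these intervals holds the share of all peaks of its list. In replicate 1 the median ratio of opposite to own tags was 1.43 for the 3 pairs in 3' UTRs, all of them higher on the opposite strand, and 0.875 for noncoding exon peaks, against 1.05 for the other sense peaks. In replicate 2 it was 1.02 for 3' UTR peaks and 1.00 for noncoding exon peaks, against 1.04 for the other sense peaks.

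In most such pairs, the opposite peak was antisense to the same gene, 27 of 39 in the 3' UTR class and 65 of 100 in the noncoding class. In 11 of the 39 pairs of the 3' UTR class, the opposite peak was itself a sense peak in coding sequence, and 8 of these crossed an exon boundary. Besides the 7 of Ndel1, these were Phykpl, a phospholysine lyase gene, opposite Hnrnpab, an hnRNP gene, and Scaf4, a regulator of polyadenylation, opposite Sod1, a superoxide dismutase gene. The Phykpl peak had 27 tags and the Scaf4 peak 28.

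The last pair of these peaks carried the name of the gene on the other strand. The plus-strand peak assigned to the 3' UTR of Rpl35, a protein of the large ribosomal subunit, had 33.8 tags (chr3:22753250-22753450). On the minus strand it faced a peak of 36.3 tags in Rpl35 coding sequence and 3' UTR, and all other Rpl35 peaks placed the gene on the minus strand. The plus-strand peak assigned to Mars1, a methionyl-tRNA synthetase, had 27 tags and was 0.06 3' UTR (chr7:63121200-63121250), opposite a minus-strand Mars1 coding peak of 24 tags. Of 1914 gene names in the lists, these 2 alone had peaks that put them on both strands, so their gene assignment in the 3' UTR class is in doubt. Without all 11 pairs, 2 of 43 3' UTR peaks of replicate 2 recurred (4.65%, Fisher exact test, adjusted p = 0.014).

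The highest noncoding exon peak of each list was in ribosomal RNA, which forms the core of the ribosome. Ribosomal RNA held 48 of the 158 peaks, 26 in replicate 1 and 22 in replicate 2, in 7 genes. The lncRNAs held as many, 14 in replicate 1 and 34 in replicate 2. The nuclear ribosomal RNA genes exist in many near-identical copies. How reads that fit several copies were placed is not given in the sources used here, so their counts per gene are uncertain. Rn45s, the precursor that is cut into the large ribosomal RNAs, had 7 peaks in replicate 1, of 280, 48, 154, 31, 67, 27 and 189 tags along an unplaced scaffold, and 2 in replicate 2, of 44.5 and 62.5. Only the peak of 154 tags was met again, at 44.5. Rn28s, the main RNA of the large subunit, had peaks of 58, 297 and 36 tags in replicate 1 and of 32, 21 and 24 in replicate 2. None overlapped, although 2 of the former and all of the latter lay within 200 nt of a peak of the other list.

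A ribosomal RNA gene without a common name on chromosome 3, LOC120093067, had 10 peaks in replicate 1 and 4 in replicate 2. A bin of 111 tags in replicate 1 had 89 in replicate 2, and a peak of 217.5 tags overlapped one of 22. Its neighbour LOC120102105 had 4 and 6 peaks, with highest values of 161 and 256 tags at different positions, and 1 recurring peak of 74 and 27 tags. LOC120099695 had 1 and 2 peaks, none recurring. Of the mitochondrial ribosomal RNAs, mt-Rnr2, the large subunit RNA, had 1 peak in replicate 1 and 4 in replicate 2, and 1 recurred in place at 31 and 32 tags. The small subunit RNA mt-Rnr1 had a peak of 44 tags in replicate 2. In all 6 mitochondrial peaks, the opposite strand had a peak too.

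In ribosomal RNA, 5 of 26 peaks of replicate 1 recurred (19.2%, 8.51 to 37.9), and in the other noncoding exons 20 of 32 did (62.5%, 45.3 to 77.1). These intervals do not overlap, but they treat the peaks of a gene as independent, and the difference between the groups was not tested. With partners allowed within 200 nt, the replicate 1 shares were 12 of 26 (46.2%, 28.8 to 64.5) and 24 of 32 (75.0%, 57.9 to 86.7). Those intervals overlap. By overlapping peaks, the replicate 2 shares were close, with 5 of 22 ribosomal RNA peaks (22.7%, 10.1 to 43.4) and 20 of 78 others (25.6%, 17.3 to 36.3). The whole noncoding class recurred at 25 of 58 (43.1%, 31.2 to 55.9), less often than the 61.5% of all other peaks of replicate 1 (Fisher exact test, adjusted p = 0.012). With partners allowed within 200 nt, 36 of 58 recurred (62.1%) against 69.7% (Fisher exact test, adjusted p = 0.25), and among peaks at or below the median deposited p-value the adjusted p of that exact test was 0.063. Without ribosomal RNA the 62.5% was set against the same 61.5% (Fisher exact test, adjusted p = 1.0). In replicate 2, 25 of 100 noncoding exon peaks recurred (25%, 17.5 to 34.3), against 20.3% (Fisher exact test, adjusted p = 0.26). With the wider limit of 200 nt, it was 45 of 100 against 25.4% (Fisher exact test, adjusted p = 1.0e-04). These 45 were 15 of 22 ribosomal RNA peaks (68.2%, 47.3 to 83.6) and 30 of 78 other noncoding exon peaks (38.5%, 28.4 to 49.6). This limit was not tested without ribosomal RNA. Of the 5 recurring ribosomal RNA peaks, 4 were lower in replicate 2. Their median ratio of replicate 2 to replicate 1 tags over all 5 was 0.365 (lowest 0.101, highest 1.03). The 20 other recurring noncoding peaks had a median ratio of 1.13 (lowest 0.618, highest 2.36), and the 1618 other recurring peaks 1.25. No test was made of these ratios, since tags are not scaled for depth.

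**Figure D4:**
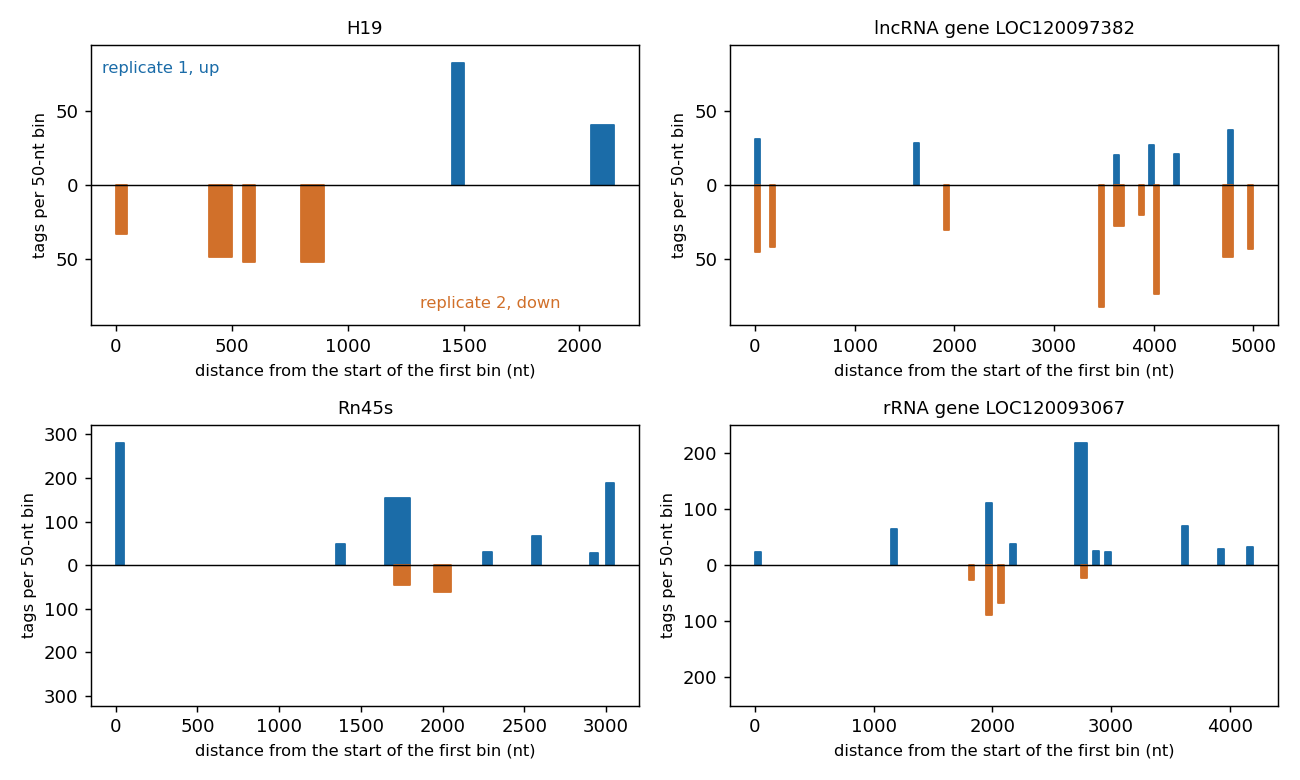
Peaks along H19, LOC120097382, Rn45s and LOC120093067, as tags per 50-nt bin against the distance in nt from the first bin, with replicate 1 drawn upward and replicate 2 downward. In H19 no bins coincide, in LOC120097382 there are 3 overlaps (31 and 45, 20 and 27.5, 37 and 48.5 tags), and in both ribosomal RNA genes the tallest bins of replicate 1 have a lower or no counterpart in replicate 2.

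Among small RNAs, 7 genes had 10 peaks. Rn7sl1, the RNA of the signal recognition particle, had 102 tags in replicate 1 and 63 in replicate 2 in the same bin (chr6:87636800-87636850, plus strand), with no peak on the opposite strand. Its sequence is also present in many copies and relatives in the genome. A small nuclear RNA gene, LOC120093302, had 65 and 104 tags in the same bin of both lists (chr6:72211450-72211500, minus strand). The plus strand of that bin was annotated as a noncoding exon of another gene, without a common name, and had 51 and 49 tags. A gene named Scarna13 in the name table, a small RNA of Cajal bodies, had 21 and 20 tags in bins 50 nt apart. The plus strand of its replicate 2 bin held a noncoding exon peak of another gene, without a common name, with 37 tags. That plus-strand peak recurred in the same bin of replicate 1, at 27 tags. The other 4 small RNA genes, 1 small nuclear RNA and 3 small nucleolar RNAs, had 1 peak each, of 19 to 24 tags. Of 14 listed small structural RNA genes, 3 were in the name table and Rn7sl1 alone had a peak.

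Of the lncRNAs, 17 genes had 14 peaks in replicate 1 and 34 in replicate 2. H19, an imprinted RNA of embryonic tissue and muscle that lies beside Igf2, had 2 peaks in replicate 1, of 82 and 40.5 tags. In replicate 2 it had 4, of 33, 48.5, 52 and 51.5 tags. All lay within 2150 nt on the minus strand of chromosome 1, yet none overlapped or came within 200 nt of a peak of the other list. The replicate 1 peaks were wholly in an exon, and the peak of 52 tags in replicate 2 was 0.02 exon and 0.98 intron.

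LOC120097382, an lncRNA gene without a common name, had the most lncRNA peaks. Its 6 peaks of replicate 1 had 20 to 37 tags and its 9 of replicate 2 had 20 to 82, over 5000 nt of chromosome 1 (203129200 to 203134200, plus strand). Of the replicate 1 peaks, 3 recurred and 5 lay within 200 nt of a replicate 2 peak. All 6 peaks of replicate 1 and 8 of 9 of replicate 2 had an antisense peak opposite to them. LOC103692514 had 2 recurring peaks, with 21 tags in both lists at the first and 33 and 78 at the second. Carmn, a cardiac and smooth muscle lncRNA listed as LOC120098113, had a recurring peak of 32 and 28 tags and a second of 26 tags in replicate 2. The recurring Carmn peak was 0.46 exon and 0.54 intron, and the second was 0.38 exon and 0.62 intron.

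The remaining lncRNA peaks were mostly of replicate 2 alone. Gas5, which hosts small nucleolar RNAs in its introns, had 25 and 20 tags there, both with an antisense partner of 26 and 21. The Gas5 peak of 25 tags was 0.58 exon and 0.42 intron, and that of 20 tags was 0.06 exon and 0.94 intron. Another 3 lncRNA genes without common names had a single recurring peak each, with 21 and 30, 22 and 24, and 22 and 21 tags. An lncRNA gene on chromosome 7 had 69 tags in replicate 2, opposite a peak of 39 tags in the 5' UTR of Zfpm2, a GATA cofactor. Over the whole noncoding class, 31 of the 100 peaks with a partner faced a sense peak, as in Ndel1. For 15 of them that peak held coding sequence, with lncRNA genes opposite Caprin1, Chd4, Mprip and Srp72 among them. Of 19 listed lncRNA genes, 9 were in the name table and H19 alone had a peak, and of 17 listed small nucleolar RNA hosts, 3 were in the table and Gas5 alone had one.

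Genes typed as coding in the name table gave 26 peaks that the authors' annotation placed in noncoding exons. The 4 genes had no other sense peak in either list, so no peak of theirs was annotated to coding sequence. Whether the authors' annotation held coding sequence for these genes was not tested. Huwe1, a large E3 ubiquitin ligase, had 2 in replicate 1, of 33 and 40 tags, and 12 in replicate 2, of 21 to 40 tags, over 47950 nt of chromosome X. In 1 bin both lists had a peak, at 40 and 29 tags. All of the former and 11 of the latter had an antisense peak opposite. Ccdc9b, a coiled-coil protein gene, had 3 and 7 peaks, of which 2 recurred at nearly the same height, 22 and 23 tags and 27 and 28 tags. Of these 26 peaks, 21 also covered intron. Sltm, a SAFB-like RNA-binding protein gene, and Chpf2, a chondroitin synthesis gene, had 1 peak each in replicate 2, of 24 and 21 tags.

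Pseudogenes in the name table had 4 peaks, all in replicate 2. Cnga4-ps1 had 81 tags, and relatives of translation genes, Rpl13a-ps6, Eif4g1-ps1 and Rpl37a-ps1, had 36, 33 and 21. Whether reads of the parent genes were counted in the pseudogenes was not tested. The name table gave no type for 10 further genes, with 7 peaks in replicate 1 and 15 in replicate 2, of 20 to 53 tags. Of these peaks of replicate 1, 6 recurred, and the last, in the pseudogene Hmgb1-ps4, lay within 200 nt of a replicate 2 peak, at 21 and 28 tags.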

How the data were processed

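RNA bound by RBM25 and input RNA were sequenced as 150-nt read pairs from a stranded total RNA kit, per the labels' protocols. HISAT2 and the build mRatBN7.2 are named in the submitters' processing notes. The software that called peaks is not given in the sources used here. By name, each deposited list was matched to its IP replicate. The lists hold the place, strand, annotation, length, tags and p-value of each peak. The tags column is a signal per 50-nt bin, per the file headers and values, and was used to describe and rank peaks. The deposited p-value was used only to take the better part of each list, and it is 0 for 3 of the peaks described here. Most peaks were 1 bin long, listed as 51 nt; bins that only touched were not counted as overlapping.

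Recurrence in each class was set against all other peaks of its list (Fisher exact test, two-sided), adjusted by Benjamini-Hochberg over 4 comparisons and a threshold of 0.05. Peaks are not independent, so these p-values compare 2 lists and measure no spread between cultures. Of 97 gene names, 85 matched RefSeq names of assembly GRCr8, which served for symbols and gene types only: 77 by symbol, 7 by gene ID and 1 by synonym. The members and the 7 gene lists were chosen with earlier results of these data known. Named genes were those with recurring peaks, the 10 with the most tags in each list and class, and members of the lists, with at most 6 identifiers that have no common name; Ndel1 partners, other examples and the pairs of strands were chosen after their values were seen. A gene that this rule names is counted but not reported by name here. Sequences were not used here. The overlap and test steps were tested on simulated data. Computations ran in Python 3.11.15 with scipy 1.17.1, numpy 2.4.6, matplotlib 3.10.9 and pandas 2.3.3.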

Additional observations from a re-analysis of the deposited data

How the results depend on the processing

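Of 35 alternatives to the shares that recur, 25 kept direction and side of the threshold, and of 15 alternatives to the counts of peaks, 9 moved the count by no more than 1.5 times. For 3' UTR peaks of replicate 1, the recurring share was 44.4% with either strand or within 200 nt, 30.0% with class by the largest part of the peak (Fisher exact adjusted p = 0.069), and 50% in the better part of the lists by the deposited p-value, where 1 of 2 peaks remained in the count (adjusted p = 1.0). For replicate 2 that last setting gave 4.76% of 21 peaks (Fisher exact adjusted p = 0.21), and over both lists it left 23 of 63 3' UTR peaks. For noncoding exons of replicate 1, it was 62.1% within 200 nt (Fisher exact adjusted p = 0.25), 34.8% in the better part (adjusted p = 0.063), and above the other peaks at 62.5% without ribosomal RNA and 71.4% against 70.3% by gene (both adjusted p = 1.0). For replicate 2 it was 45.0% within 200 nt. With 1 list left out, counts ranged from 9 to 54 for 3' UTR, 58 to 100 for noncoding exons and 22 to 26 for ribosomal RNA; no share of recurring peaks exists then. Counting by gene, leaving out Ndel1 and leaving out bins opposite a sense peak were chosen after seeing the data. The causes of the changes between settings were not tested, and some settings left smaller numbers of peaks. No paired analysis was possible because the results come from peak lists of the IP samples alone, with no test across replicates. Unknown depth limits any reading of list length or tags.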
